A study of Mus musculus and Homo sapiens with 18 samples.

Results

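Of the 18042 peaks listed for the guide EMX1-sg1, 4167 lay on human chromosomes 17, 19 and 22, which is 23.1% of the list (95% interval 22.5 to 23.7%). These chromosomes carried 1630, 1694 and 843 peaks. The members are all peaks of the EMX1-sg1 list on these 3 chromosomes (hg19), taken without any limit on score or width. They were thus selected on the authors' peak calls and on chromosome, and their number and density are a description with no test.

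The series measured where HA-tagged dCas9 sits in the genome, by chromatin immunoprecipitation with an anti-HA antibody (IP) and sequencing. Of its human part, 4 libraries are used here, each the only one of its group and all from 293FT, a line of human embryonic kidney cells: IP after transfection with 20 ug of the single guide RNA EMX1-sg1, IP after 20 ug of EMX1-sg3, IP without guide, and an input without guide and without antibody. The titles of both guide libraries call them transient; how dCas9 reached the cells, and in what amount, is not stated for the human samples. The lists come from populations of cells, so a peak does not tell in what share of cells the site was held. The lists hold no read counts, so depth is unknown.

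Cas9 finds DNA by a short motif beside the target, the PAM, and by pairing of the guide with the target strand, which begins at the PAM-side end of the guide, called the seed. The catalytically dead form, dCas9, binds in the same way and does not cut, so its immunoprecipitated DNA marks where it was held. Short seed matches with a PAM are frequent in any large genome, and sites in open chromatin are known to be bound more readily than sites in closed chromatin. Chromosomes 17, 19 and 22 are known as rich in genes and in G and C bases, and chromosomes 4, 13 and 18 as poor in both. EMX1, the homeobox gene of the developing forebrain that both guides were made for, lies on chromosome 2, so no member is the intended site. No hg19 sequence or annotation was used here: members are given by position, and neither their genes nor the gene density of their chromosomes was measured.

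Chromosomes 19, 22 and 17, in this order, had the highest densities of EMX1-sg1 peaks among the 23 chromosomes with more than 1 peak. Chromosome 19 had 28.8 peaks per Mb of span, the distance from its first to its last peak. Chromosome 22 had 24.9 and chromosome 17 had 20.1 peaks per Mb. The others ran from 2.24 on X to 10.3 on chromosome 16. The density on chromosome 19 was thus 2.79 times, and that on chromosome 17 1.94 times, the density on chromosome 16, the nearest of the others. Span includes stretches without peaks, such as a gap of 13.4 Mb on chromosome 16, so these steps depend on the denominator. Per 1 Mb bin with at least 1 peak, chromosomes 19, 22 and 17 had 32.6, 24.8 and 21.7 peaks, and chromosome 16 had 14.1. Pooled over the 3 chromosomes there were 24.0 peaks per Mb, against 5.04 on all others, a ratio of 4.76. Against chromosomes 4, 13 and 18, which had 2.72 peaks per Mb, the ratio was 8.81. These ratios count listed peaks only. The peak names carry running numbers, and the share of numbers with a listed peak differed between stretches of the list, as given further below. The members covered 5782 kb, or 3.33% of the span of their chromosomes, against 0.337% on chromosomes 4, 13 and 18. With 1 library there is no spread between replicates, and no test was made between chromosomes.

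EMX1-sg3 did not show this order. On the 3 chromosomes lay 23.1% of the EMX1-sg1 list and 7.85% of the EMX1-sg3 list (6.14 to 9.87%). EMX1-sg3 had 16 peaks on chromosome 19, 16 on chromosome 22 and 35 on chromosome 17, together 67 of 853. Per Mb of the same span, EMX1-sg3 had 0.272 peaks on chromosome 19, which ranked 15 of 23. Chromosomes 22 and 17 ranked 1 and 2 for EMX1-sg3, with 0.473 and 0.432 peaks per Mb, but its densities covered a narrow range, 0.168 to 0.473 over all 23 chromosomes. The pooled ratio of the 3 chromosomes to all others was 4.76 for EMX1-sg1 and 1.35 for EMX1-sg3. There were 106 EMX1-sg1 peaks for each EMX1-sg3 peak on chromosome 19, 52.7 on chromosome 22 and 46.6 on chromosome 17, against 10.7 on chromosomes 4, 13 and 18. The intervals on shares are exact (Clopper-Pearson, 95%) and cover counting error only; peaks that lie close together are not independent.

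**Figure D1:**
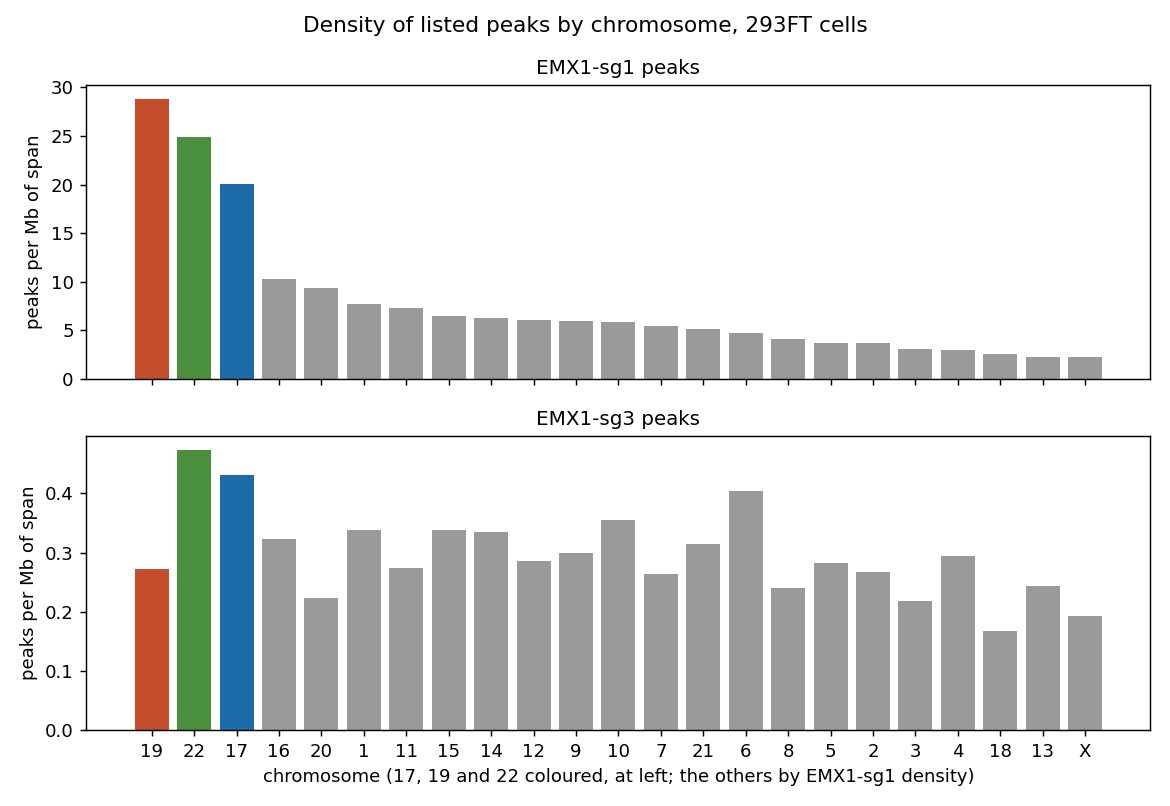
Listed peaks per Mb of span (y axis) for each chromosome (x axis), EMX1-sg1 above and EMX1-sg3 below, 1 library each; 17, 19 and 22 are coloured. The EMX1-sg1 bars of chromosomes 19, 22 and 17 stand at 28.8, 24.9 and 20.1, and no other exceeds 10.3; the EMX1-sg3 bar of chromosome 19 is at 0.272.

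The control lists held 4 peaks on these chromosomes. The 293FT IP without guide had 4 of its 63 peaks there, 1 on chromosome 17, 2 on chromosome 19 and 1 on chromosome 22, with scores of 51.33 to 58.69. The nearest lay 14.7 kb from an EMX1-sg1 peak, so none of the 4 shared bases with one or came within 10 kb. The input had 0 of its 49 peaks there (interval 0 to 7.25%), whereas 24 of the 49 lay on chromosomes 4, 13 and 18. What was removed from these lists before deposit is unknown, so they do not give the whole background.

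Along each chromosome the peaks were crowded in some 1 Mb bins and missing from others. Of the 177 bins from the first to the last member on each chromosome, 16 were empty. Chromosome 17 had a median of 14 peaks per bin (quartiles 7 and 29, highest 82), chromosome 19 a median of 24 (6.5 and 46.25, highest 99) and chromosome 22 a median of 20 (12 and 37, highest 73). The most crowded 10% of bins held 31.0% of the peaks of chromosome 17 (28.7 to 33.3%), 28.5% of chromosome 19 (26.4 to 30.7%) and 29.7% of chromosome 22 (26.6 to 32.9%). Rounded up to whole bins, these were 9 of 82, 6 of 60 and 4 of 35 bins. They were picked as the fullest by the same counts, so uneven counts alone place their share above an even one. The intervals leave out this choice. No random placement was drawn, and the share is not given for other chromosomes. Whether the crowding exceeds chance or is particular to these chromosomes was thus not tested. The variance of bin counts was 16.9, 22.7 and 14.7 times their mean on chromosomes 17, 19 and 22.

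The crowded stretches lay at different places on the 3 chromosomes. On chromosome 19 they were at the low-numbered end: the first 5 bins held 417 of 1694 peaks, or 24.6%, and the last 5 held 74, or 4.37%, where an even spread would give 8.33%. Its fullest bins were 1000001 to 2000000, with 99 peaks, and 3000001 to 4000000, with 97. On chromosome 17 both ends held more than an even spread would give, 6.10%: the last 5 bins held 276 of 1630 peaks, or 16.9%, and the first 5 held 157, or 9.63%. Its fullest bins were 79000001 to 80000000, with 82 peaks, and 80000001 to 81000000, with 75. On chromosome 22 the ends did not stand out, with 127 of 843 peaks in the first 5 bins and 124 in the last 5. Its fullest bin was 37000001 to 38000000, with 73 peaks, followed by 50000001 to 51000000, with 66.

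Each chromosome also had a stretch almost free of peaks. The widest lay on chromosome 19, where no member fell in the 4.85 Mb between 23433568 and 28283877. It was part of a run of 10 bins, 20000001 to 30000000, that held 4 peaks in all, although the bins on its flanks, 19000001 to 20000000 and 30000001 to 31000000, held 30 and 8. On chromosome 17 the widest gap was 3.93 Mb, between 21434734 and 25365495, and the next 3.27 Mb, between 49693719 and 52968366. On chromosome 22 it was 2.01 Mb, between 33394743 and 35403835. The first member on chromosome 22 began at 17305997, and that on chromosome 17 at 43864. No map of assembly gaps, repeats or genes of hg19 was used here, so what these stretches hold was not measured. Distances over 1 Mb between neighbouring peaks numbered 12 on the 3 chromosomes and 111 on chromosomes 4, 13 and 18.

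**Figure D2:**
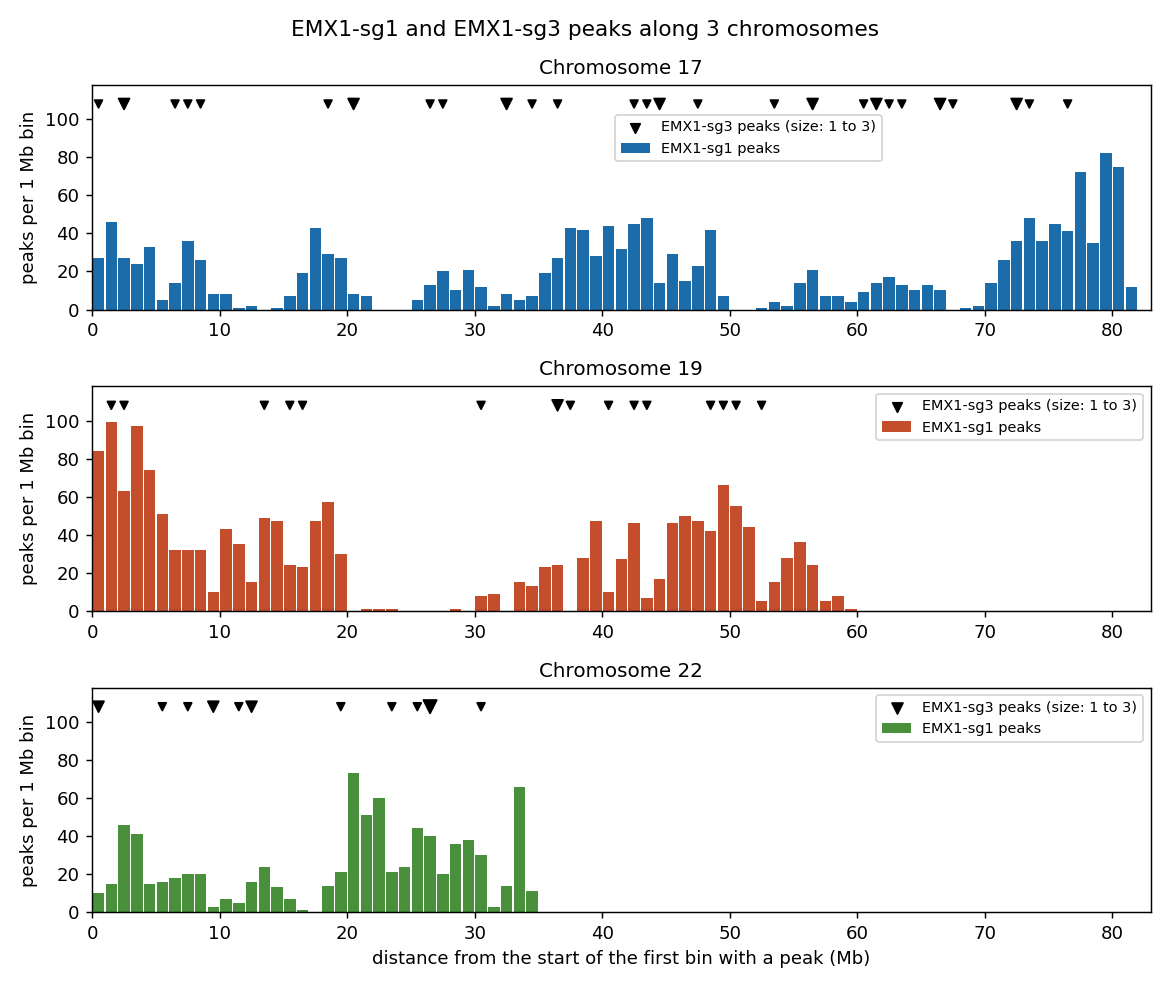
EMX1-sg1 peaks per 1 Mb bin (bars, y axis) along chromosomes 17, 19 and 22 against the distance from the start of the first bin with a peak (x axis, Mb); black triangles mark bins with EMX1-sg3 peaks, larger for 2 or 3. Bars reach 99 at the left end of chromosome 19, 82 at the right end of chromosome 17 and 73 on chromosome 22, and triangles lie over both high and low bars.

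Neighbouring members lay close together. The median distance from the end of a peak to the start of the next was 14.9 kb on chromosome 17, 11.1 kb on chromosome 19 and 13.9 kb on chromosome 22, against 109 kb on chromosomes 4, 13 and 18. Pooled, 43.1% of the distances on the 3 chromosomes were at most 10 kb (41.5 to 44.6%), against 15.0% on chromosomes 4, 13 and 18 (12.9 to 17.4%) and 23.4% on all others (22.7 to 24.1%). Distances of at most 1 kb numbered 306, and the shortest was 1 bp, on chromosome 22. No members overlapped each other. A higher density by itself gives shorter distances, and no random placement was drawn, so these values describe spacing and do not show clustering beyond density.

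**Figure D3:**
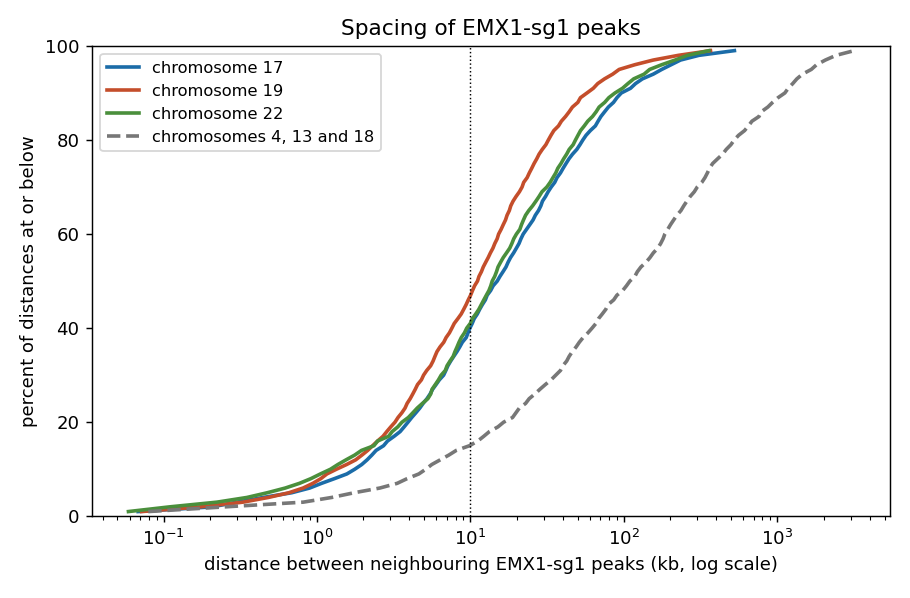
Percent of distances between neighbouring EMX1-sg1 peaks (y axis) at or below a given distance (x axis, kb, log scale) for chromosomes 17, 19 and 22 (solid) and for 4, 13 and 18 pooled (dashed); the dotted line is at 10 kb. The solid lines cross 50% at 14.9, 11.1 and 13.9 kb and the dashed line at 109 kb.

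Peaks whose neighbouring edges lay within 10 kb were joined into chains. The 3 chromosomes held 843 chains of at least 2 peaks, which took in 2636 of the 4167 members, or 63.3% (61.8 to 64.7%). This compares with 24.6% of the peaks on chromosomes 4, 13 and 18 (21.9 to 27.4%) and 37.0% on all others (36.2 to 37.8%). By chromosome the share was 59.5% on 17, 68.5% on 19 and 60.02% on 22. Among peaks with scores of at least 100 it was 32.6, 29.7 and 32.7%, with overlapping intervals (28.9 to 36.4, 25.8 to 33.7 and 27.3 to 38.5%). With scores at or above the list's median it was 38.6, 40.5 and 42.1%. The order of the 3 chromosomes thus did not hold under score limits. Pairs were the commonest chains: 164 of the 315 on chromosome 17, 180 of the 367 on chromosome 19 and 89 of the 161 on chromosome 22 were pairs of peaks. Chains of at least 5 peaks numbered 130 among the 4167 members and 5 among the 988 peaks on chromosomes 4, 13 and 18. On all others they numbered 168 among 13874 peaks, and the longest chain there had 15 peaks. Chains of at least 10 numbered 1 on chromosome 17, 5 on chromosome 19 and 4 on chromosome 22.

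The longest chains ran over 62.3 to 78.9 kb. On chromosome 17, 17 peaks followed each other from 77077639 to 77156496, over 78.9 kb, of which they covered 30.3 kb, with scores from 52.50 to 241.34. On chromosome 22, 14 peaks lay from 50688724 to 50750984, over 62.3 kb, with scores from 56.63 to 187.65. Chromosome 19 had a pair of chains with 13 peaks each, from 791379 to 861515 and from 1716242 to 1781378, with highest scores of 127.56 and 188.08. No peak of these 4 chains scored above 241.34, against 989.38 for the highest-scoring member.

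Widths of members were moderately above those elsewhere in the list. The median width was 1162 bp on chromosome 17 (interval of the median 1112 to 1201 bp), 1122 bp on chromosome 22 (1066 to 1171 bp) and 1078.5 bp on chromosome 19 (1051 to 1108 bp). These ranked 1, 3 and 4 of 23 chromosomes, the others running from 826 to 1142 bp, so the ranges touch. Pooled, the median was 1112 bp (1090 to 1145 bp), against 1004 bp on all others (992 to 1017 bp) and 910.5 bp on chromosomes 4, 13 and 18 (862 to 946 bp). The lower quartile was 814 bp, against 633 bp on chromosomes 4, 13 and 18, and the upper quartile 1708.5 bp, against 1638.5 bp. Peaks of at least 2 kb made up 18.2% of members (17.03 to 19.4%), 168 of the 988 peaks on chromosomes 4, 13 and 18 (14.7 to 19.5%) and 16.5% on all others (15.8 to 17.1%). The interval of the members overlaps both of the others, that of all others only at its edge. Overlap of intervals is no test, and none was made of these shares.

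Width went with crowding, least so on chromosome 19. Members in chains had a median width of 1246 bp on chromosome 17, against 1012.5 bp for members outside chains. The values were 1091.5 against 1052.5 bp on chromosome 19 and 1184 against 1012 bp on chromosome 22. Both values of chromosome 19 lie within the interval of its median, 1051 to 1108 bp. Chains are joined by the distance between edges, so a wider peak enters a chain more easily by construction. Over bins with at least 5 peaks, Spearman's rho between the number of peaks and their median width was 0.48 on chromosome 17 (65 bins), 0.26 on chromosome 19 (47 bins) and 0.37 on chromosome 22 (31 bins). The same rho for the median score was 0.11, 0.16 and -0.07. These are descriptions over bins of 1 library, which share its depth and the local base composition, and carry no test.

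The widest peak of the whole EMX1-sg1 list was a member. It covered 9907 bp of chromosome 19, from 5689908 to 5699814, with a score of 172.88. The next widest on chromosome 19 covered 7591 bp, from 4061143 to 4068733, with a score of 344.93. On chromosome 22 the widest was 6954 bp, from 38709187 to 38716140, which was also the third highest there by score (501.09). The next, from 41839924 to 41845643, had 5720 bp and a score of 127.75. On chromosome 17 the widest were 6784 bp, from 27915084 to 27921867 (score 532.66), and 6324 bp, from 77811117 to 77817440 (score 92.59). The nearest edge of another peak lay 0.029 kb from the second of these. Width and score thus did not rank these peaks alike. At the other end, the narrowest member had 297 bp, on chromosome 17 from 66782209 to 66782505.

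Scores of the members depended on which other chromosomes they were set against. Of the members, 7.32% were in the top 10% of the list by score (6.55 to 8.15%), against 10.8% of the peaks on all other chromosomes (10.3 to 11.3%). Against the 12 other chromosomes whose running numbers in the peak names all follow a restart on chromosome 17, this did not hold: 6.02% of the peaks of chromosome 19 and 4.74% of those of chromosome 22 were in the top 10%, against 2.15 to 5.96% on those 12. Median scores were 79.21 and 81.28 on chromosomes 19 and 22, against 75.03 to 79.74 on the same 12. The score is the authors' own value for a peak, of unstated scale, and is used here to rank peaks within the EMX1-sg1 list. The highest-scoring member, on chromosome 17 from 2295035 to 2297922, had 989.38 and ranked 44 of 18042. It was followed there by 853.45, from 3582661 to 3584179, and 694.68, from 7736922 to 7740699. On chromosome 22 the highest were 710.74, from 51081582 to 51083227, and 506.16, from 45087515 to 45089728. On chromosome 19 the highest were 557.44, from 3478195 to 3480954, then 479.75, from 39233594 to 39235272, and 475.07, from 1141807 to 1142766. The strongest site of chromosome 19, the most crowded chromosome, thus ranked 266 in the list. The lowest score of the list, 50.01, was also a member, on chromosome 17 from 2595500 to 2596247.

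Scores on chromosome 17 came in 2 parts, divided where the running numbers in the peak names restart. The numbers rise along the chromosome from 13080 at position 43864 to 14604 at the peak that ends at 43674158. The next peak, starting at 43743968, has the number 10001, and the numbers rise from there to 11016. The 810 peaks before the restart had a median score of 93.77 (interval of the median 90.32 to 99.32), and the 820 after it 77.15 (74.83 to 80.21). Scores above 300 numbered 58 before the restart and 10 after it. Of the peaks before the restart 15.2% were in the top 10% of the list by score, 198.677 or more (12.8 to 17.8%), and of those after it 4.88% (3.51 to 6.58%). All 3 of the highest scores named for chromosome 17 lay before the restart. Spearman's rho between width and score was 0.55 before and 0.39 after it, whereas the median widths were 1109 and 1193.5 bp.

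Chromosomes 19 and 22, whose numbers run on after the restart, were like the second part. Besides the scores given above, rho between width and score was 0.40 and 0.31. Chromosomes 15 and 16, which share the numbering of the first part of chromosome 17, had median scores of 88.17 and 95.22. A rank over the whole list sets these stretches side by side. Why the numbers restart is not stated in the sources used here, and the part of preparation in the score difference was not tested.

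**Figure D4:**
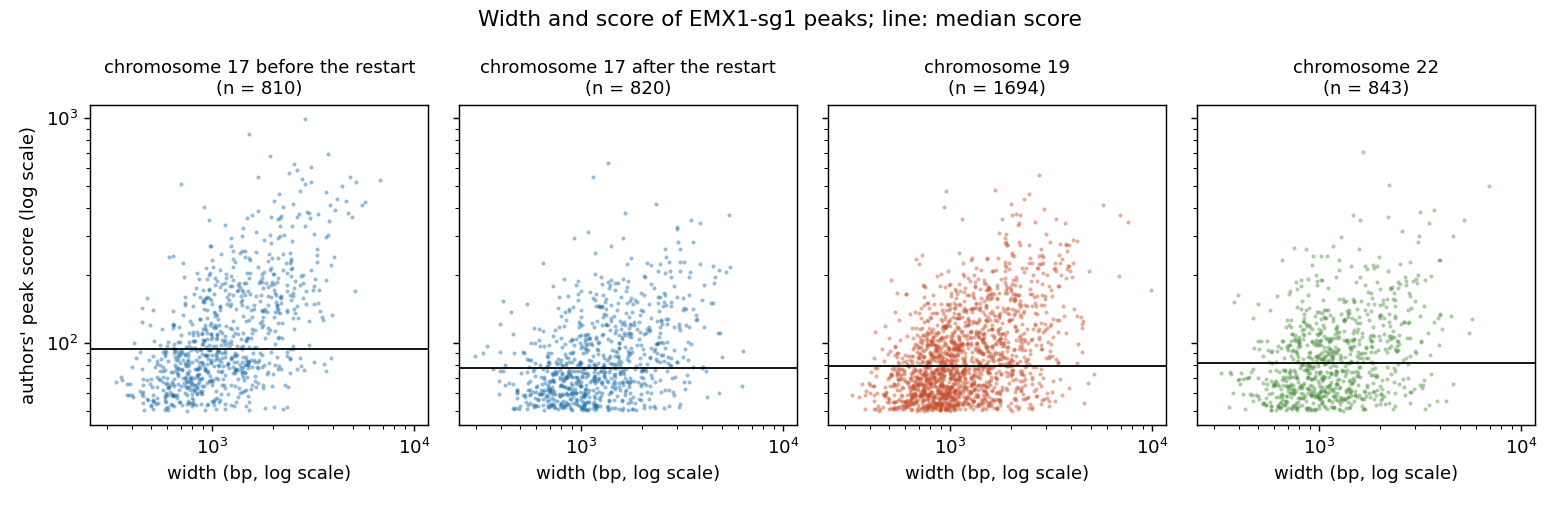
Authors' peak score (y axis, log scale) against width (x axis, bp, log scale) for each member, 1 point per peak, on chromosome 17 before and after the restart of the running numbers, and on chromosomes 19 and 22; black lines are median scores. The line stands at 93.77 in the first panel and at 77.15, 79.21 and 81.28 in the others, and scores above 300 are commonest in the first.

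The density of peaks held on both sides of the restart. Chromosome 17 had 18.6 listed peaks per Mb before it and 21.9 after it. Chromosomes 15 and 16 had 6.50 and 10.3. The 12 chromosomes numbered after the restart, other than 19 and 22, had up to 9.38. The numbers run beyond the listed peaks. The 1525 numbers used before the restart correspond to 810 listed peaks, or 53.1% (50.6 to 55.6%), and the 1016 after it to 820, or 80.7% (78.1 to 83.1%). On chromosomes 19 and 22, 84.6% and 76.9% of the numbers were listed, against 67.5 to 80.0% on the 12 other chromosomes numbered after the restart. Counted by numbers, chromosomes 19 and 22 had 34.1 and 32.4 per Mb, against 3.15 to 12.3 on the 12 others numbered after the restart. Chromosome 17 had 35.0 numbers per Mb before the restart and 27.2 after it, the reverse of the order of its parts by listed peaks. The listed peaks are among these numbers, so on chromosomes 19 and 22 the density by numbers could not be lower than the listed density. It is no separate result. It also takes the unlisted numbers to lie between the listed peaks, which was not measured. On no member chromosome did a name recur, but 107 names were shared between member chromosomes.

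EMX1-sg3 peaks fell in 53 of the 177 bins, and 51 of these also held an EMX1-sg1 peak. The 19 most crowded bins held 1238 EMX1-sg1 peaks and 6 of the 67 EMX1-sg3 peaks: 3 on chromosome 17, 3 on chromosome 19 and 0 on chromosome 22. Those 6 are 8.96% of the EMX1-sg3 peaks in 10.7% of the bins, so their number was near an even share. On chromosome 17 the median number of EMX1-sg1 peaks was 20 in bins with EMX1-sg3 and 12 in the rest. It was 24 in both on chromosome 19, and 20 against 19 on chromosome 22.

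**Figure D5:**
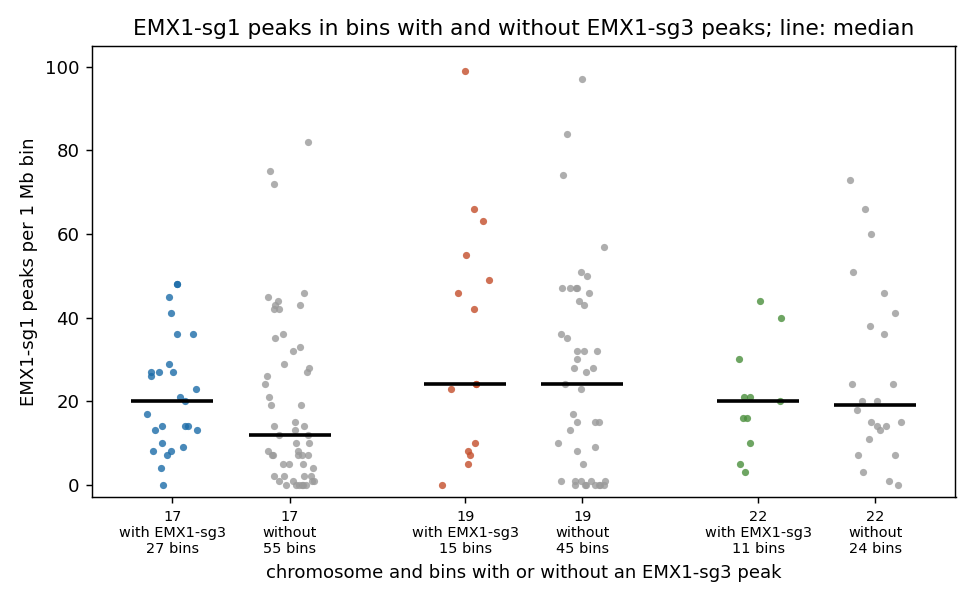
EMX1-sg1 peaks per 1 Mb bin (y axis), 1 point per bin, in bins with (coloured) and without (grey) an EMX1-sg3 peak on chromosomes 17, 19 and 22 (x axis); black lines are medians. The medians are 20 and 12 on chromosome 17, 24 and 24 on chromosome 19, and 20 and 19 on chromosome 22, and the points overlap throughout.

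A few bins show the range. Bin 1000001 to 2000000 of chromosome 19 held 99 EMX1-sg1 peaks and 1 EMX1-sg3 peak. Bin 43000001 to 44000000 of chromosome 22 held 40 EMX1-sg1 peaks and 3 EMX1-sg3 peaks, the most for that guide. Bins 67000001 to 68000000 of chromosome 17 and 37000001 to 38000000 of chromosome 19 held 1 EMX1-sg3 peak each and no EMX1-sg1 peak. Bin 79000001 to 80000000 of chromosome 17, with 82 EMX1-sg1 peaks, held no EMX1-sg3 peak.

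No base was shared between a peak of EMX1-sg1 and a peak of EMX1-sg3 on these chromosomes. The median distance from an EMX1-sg3 peak to the nearest EMX1-sg1 peak was 22.7 kb, and 17 of the 67 lay within 10 kb (25.4%, 15.5 to 37.5%): 8 on chromosome 17, 6 on chromosome 19 and 3 on chromosome 22. On chromosome 19 an EMX1-sg1 peak from 49864539 to 49866130 (score 52.59) ended 4 bp before the strongest EMX1-sg3 peak there, from 49866135 to 49867666 (score 288.92). On chromosome 17 an EMX1-sg1 peak from 34058007 to 34060159 (79.36) ended 10 bp before an EMX1-sg3 peak from 34060170 to 34060948 (78.13). Also on chromosome 17, an EMX1-sg1 peak from 44151498 to 44152289 (53.72) began 469 bp after an EMX1-sg3 peak from 44150031 to 44151028 (74.89). The members covered 3.33% of the span. That share leaves out the width of the EMX1-sg3 peaks, so it is no yardstick for sharing a base. No random placement was drawn, and whether 0 of 67 is a low count was not tested. Both lists are named as filtered, by a rule not stated, and its part in this was not tested.

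The other 14 EMX1-sg3 peaks within 10 kb lay 2.06 to 9.23 kb from the nearest member. Scores within these pairs went either way. On chromosome 17 an EMX1-sg1 peak of score 54.58 lay 4.78 kb from the EMX1-sg3 peak at 42318421 to 42319016, the strongest of the 14, with 393.69. Another EMX1-sg1 peak on chromosome 17 had 95.16, against 248.45 for the EMX1-sg3 peak at 8257261 to 8258304, 2.38 kb away. On chromosome 22 an EMX1-sg1 peak had 70.91, against 248.67 for the strongest EMX1-sg3 peak there, at 42062467 to 42064030, 6.05 kb away. In the other direction, the EMX1-sg1 peak from 7834349 to 7837051 on chromosome 17 had 376.02, against 81.57 for the EMX1-sg3 peak 5.66 kb away. The EMX1-sg1 peak from 29426197 to 29428404 on chromosome 22 had 362.76, against 91.12 for EMX1-sg3 at 5.21 kb. Whether scores can be set against each other between lists is not known. The highest EMX1-sg3 score on the 3 chromosomes, 446.90 on chromosome 17 from 76630278 to 76630877, ranked 11 of 853 in its list and had no EMX1-sg1 peak within 10 kb. The members had a median width of 1112 bp (range 297 to 9907 bp), against 668 bp (range 377 to 1564 bp) for the EMX1-sg3 peaks on these chromosomes. The lists differed in this way elsewhere too. Medians were 1004 bp for EMX1-sg1 and 650 bp for EMX1-sg3 on all others, and 910.5 and 607 bp on chromosomes 4, 13 and 18.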

How the data were processed

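Reads were mapped with Bowtie to hg19, per the submitters' processing notes, which give no version. The deposited lists hold 1 peak per line with a position and a score; the score and its scale are the authors' own, its column has no name, and the peak names begin with MACS, a peak caller. Neither the caller's version nor its control library, threshold or later filter could be read from the labels. Positions are printed 1-based, with the deposited starts read as 0-based. The members and all descriptions were chosen with earlier results of these data known. With 1 library per group, no test was made.

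Peaks were placed in 1 Mb bins by their centre, and span ran from the first to the last EMX1-sg1 peak of a chromosome. Regions named are, on each chromosome, the 3 highest-scoring and 2 widest peaks, the 2 fullest bins, the longest chain, the widest gap, and other lists' peaks within 10 kb of a member; other positions were chosen after their values were seen. A new run of numbers was set where a number fell or leapt by over 200. Share intervals are exact Clopper-Pearson (scipy 1.17.1), and median intervals use binomial order statistics, both 95%. Binning, chaining and overlap were tested on simulated data. Python 3.11.15, pandas 2.3.3, numpy 2.4.6 and matplotlib 3.10.9 were used. Alternatives were score limits, merging of peaks, bin size, bin position, denominator, chain distance and overlap. Those that set the restart on chromosome 17 apart were added after the data had been seen.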

Additional observations from a re-analysis of the deposited data

How the results depend on the processing

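Of 124 recomputed values of 23 results, 46 moved by more than the limit set for them; the ratio of density on chromosomes 17, 19 and 22 to that elsewhere stayed at 3.91 or more. With scores of at least 100, the share of the list was 21.7%, the density ratio 4.37, and 24 bins held both guides. For chromosomes 17, 19 and 22 in this order, density was then 7.72, 9.13 and 8.47 per Mb, the share in the most crowded bins 34.0, 32.1 and 34.2%, the median width 1587.5, 1525 and 1426 bp, and the share in chains 32.6, 29.7 and 32.7%. With scores at or above the list's median, the share was 21.9% and the ratio 4.44, with densities of 10.1, 12.9 and 11.8 per Mb, crowded shares of 33.7, 31.8 and 33.3%, widths of 1466.5, 1391 and 1321 bp, chain shares of 38.6, 40.5 and 42.1%, and 34 bins with both guides, against 51 reported. Merging peaks within 500 bp gave chain shares of 56.7% on 17 and 66.0% on 19. Bins of 2 Mb gave a crowded share of 24.3% on 22 and 41 bins with both guides, and occupied bins as denominator a ratio of 3.91. Chains within 5 kb held 40.7, 50.1 and 38.7%, within 20 kb 75.6, 86.1 and 76.7%, and within 50 kb 90.4, 95.9 and 92.5%. In alternatives added after the data had been seen, chromosomes 19 and 22 against those numbered after the restart had a density ratio of 6.69. Chromosome 17 without the stretch before the restart had a median score of 77.15, a chain share of 63.5% and a crowded share of 33.8%. A score limit removes peaks, so bins with both guides can only become fewer, and a longer chain distance cannot lower a chain share. The shifts in list share, density ratio, crowded share, width and chain share under score limits are not fixed in this way. Their cause and that of the other shifts was not tested. Chromosome length as denominator was not run, since no genome of the build was used. No paired analysis was possible because each group has 1 library. With no replicate and no read counts, how many weak peaks hinge on depth is unknown.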
